A study of Homo sapiens with 24 samples.

Results

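GDF15, FGF21, INHBE, STC2, ADM2, INHBA, AREG, HBEGF and LIF encode factors that cells secrete or shed under stress, and their transcripts were followed in human cell lines after knockdown of GCDH, the mitochondrial glutaryl-CoA dehydrogenase of lysine breakdown. The 9 genes were taken by name from the 60504 rows of the expression table, and gene coordinates below are those of GENCODE 29 on GRCh38. GDF15 was chosen by its measured rise in SK-Hep1 cells, so the SK-Hep1 knockdown values of the 9 genes are a description and carry no test. The other 8 genes were added as secreted stress factors, and all 9 were present in the table.

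The study compared siRNA against GCDH (siGCDH) with a control siRNA (siControl) 48 hours after transfection, with 24 libraries in 8 groups of 3. A375 is a human melanoma line and was profiled in 2 batches with different library kits. Batch 1 was made with a QuantSeq kit, which reads the 3' end of transcripts, and batch 2 with a full-length, strand-specific kit. SK-Hep1, a line derived from a liver tumour, and SKBR3, a breast cancer line, were made with the full-length kit of batch 2. All groups, controls included, were transfected, no other agent is named in the labels, and the replicates of a group were separate wells. Knockdown was transient, and the siRNA sequences are not part of the sources. The 18 full-length libraries and the 6 tag libraries were never tested against each other for level.

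Many of these factors lie downstream of the integrated stress response, in which kinases that sense amino acid shortage, misfolded protein or mitochondrial failure phosphorylate the initiation factor eIF2 and raise translation of the transcription factor ATF4. GDF15 is a distant relative of the TGF-beta family that signals to the hindbrain through GFRAL and RET and lowers food intake, and FGF21 is a fasting hormone of the liver that acts through FGF receptors with KLB. INHBA and INHBE encode subunits of activins, STC2 is a secreted glycoprotein, ADM2 is a peptide of the calcitonin family, AREG and HBEGF are shed ligands of the EGF receptor, and LIF is a cytokine of the interleukin-6 family.

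Promoter sequence was read for 3 of the genes whose window held a searched motif, namely GDF15 and AREG, which with STC2 and LIF were the genes that rose in A375 batch 2, and FGF21, the hormone that was almost undetected. RefSeq windows (GRCh38.p14) were at hand for 7 of the 9 genes, all but INHBE and LIF, and the 250 bases before the annotated start were searched. Each line below is a stretch of 30 bases on the plus strand, which is the gene strand of all 3 genes, with the matching letters in capitals.

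GDF15 at chr19:18386117-18386146: aagtccggggacTATAAAggccggtccggc

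AREG at chr4:74445095-74445124: cccggctgagccTATAAAgcggcaggtgcg

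AREG at chr4:74445059-74445088: acggccgggcctTGACGTCAtgggctgcgg

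FGF21 at chr19:48755458-48755487: gaaacaccaggaTTGCATCAgggaggagga

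The letters TATAAA on the gene strand, a TATA box, began 29 bases before the start in both GDF15 and AREG, and 11 bases before it in INHBA. They occurred in 6.80% of the 35116 windows of all genes. The cyclic AMP response element TGACGTCA, searched on both strands, was held by AREG alone among the 7 genes and by 1.65% of all windows. The composite element TGATGNAA, to which ATF4 and a C/EBP partner are known to bind, was held on the reverse strand by FGF21 alone and by 3.14% of all windows. The letters TGANTCA (an AP-1 site, 6.57% of all windows) and TGACNNNGC (the core of the antioxidant response element, 10.9%), both searched on both strands, were in none of the 7 windows. No 2 of these matches overlapped. In the GENCODE 29 annotation the GDF15 stretch also lies inside exons of longer GDF15 transcripts that start upstream.

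All siGCDH libraries held less GCDH than any control library of their set, at 17.8% of the control mean in A375 batch 2, 20.8% in A375 batch 1, 29.3% in SK-Hep1 and 26.4% in the libraries labelled SKBR3. Between 12210 and 17251 genes reached 1 TPM, a length-corrected share of all transcripts, in a library. In A375 batch 1, 4 long noncoding RNA rows took 17.1% ± 2.07 of the total in control wells and 33.0% ± 1.65 after knockdown (SD, n = 3), against under 0.1% elsewhere, and this lowers the other values of the knockdown libraries. Melanocyte markers summed to between 565 and 594 TPM in control cells of A375 batch 2, nearly all of it SOX10 (457 TPM) and S100B (114 TPM) beside MITF at 11.6 TPM, with the other 5 of 8 markers under 1 TPM, and to at most 22.5 TPM in the other lines. The libraries labelled SKBR3 went against their label in ERBB2, although SKBR3 is known for ERBB2 amplification. Their control wells held less of it (25.5 TPM) than those of A375 batch 2 (32.7 TPM) or SK-Hep1 (46.4 TPM). The breast markers were split between control cells of A375 batch 2 and these libraries: of 9 tested, 4 were higher in A375, 3 lower and 2 did not pass. TFAP2A and GATA3 stood higher in the libraries labelled SKBR3 (34.0 and 7.77 TPM) than in A375 batch 2 (10.0 and 2.05 TPM). The name used throughout is therefore the libraries labelled SKBR3. SK-Hep1 control cells were at 0 for ALB, APOA1, APOB, HNF4A, TTR and FGB of the 8 hepatocyte markers, with AFP at 0.69 TPM and SERPINA1 at 9.59 TPM. They held more of the breast markers than the libraries labelled SKBR3, with KRT19 at 1262 against 0.23 TPM, KRT8 at 2317 against 9.07 TPM and GATA3 at 55.3 against 7.77 TPM, and the 8 endothelial markers summed to at most 3.63 TPM. The name SK-Hep1 therefore also stands only for the libraries that carry that label.

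Each line expressed a different factor most. Because TPM is corrected for length in full-length libraries, levels can be set side by side between genes there. INHBA led in A375 batch 2, with 90.2 ± 4.09 TPM in control cells, GDF15 led in SK-Hep1, with 58.0 ± 1.19 TPM, and STC2 led in the libraries labelled SKBR3, with 46.7 ± 3.05 TPM (SD, n = 3 each). The leading gene made up 63.5% of the summed level of the 9 genes in A375 batch 2 control cells, 47.9% in SK-Hep1 and 86.7% in the libraries labelled SKBR3. FGF21 and INHBE stayed under 1 TPM in all 24 libraries.

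**Figure D1:**
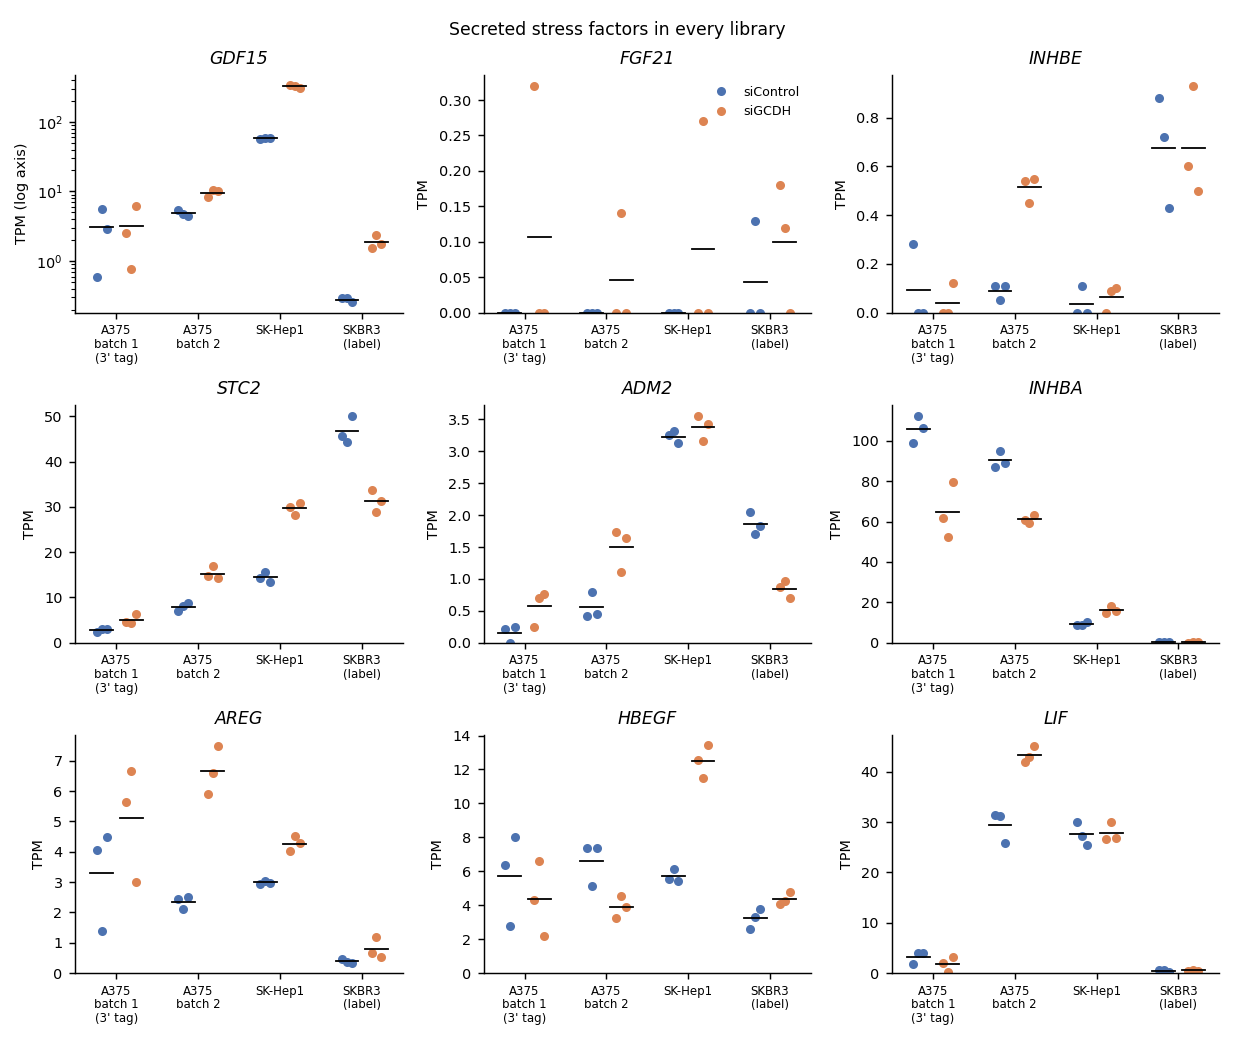
Level of each of the 9 genes in TPM (vertical axis, logarithmic for GDF15 and linear for the others) in every library, by line and batch (horizontal axis), with control siRNA in blue, siRNA against GCDH in orange and a black line at the mean of 3 libraries. GDF15 spans from 0.26 to 334 TPM, and STC2 is higher after knockdown in A375 and SK-Hep1 and lower in the libraries labelled SKBR3.

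The summed level changed little in A375 batch 2, from 142.2 ± 4.40 to 141.8 ± 4.50 TPM, where lower INHBA and HBEGF stood against higher LIF, STC2, GDF15 and AREG. INHBA made up 43.1% of the sum after knockdown there. In SK-Hep1 the sum went from 121 ± 2.78 to 417 ± 13.2 TPM, and GDF15 made up 77.4% of it after knockdown. In the libraries labelled SKBR3 the sum went from 53.8 ± 2.92 to 40.7 ± 1.21 TPM, and STC2 made up 76.8% of it after knockdown (SD, n = 3 throughout).

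**Figure D2:**
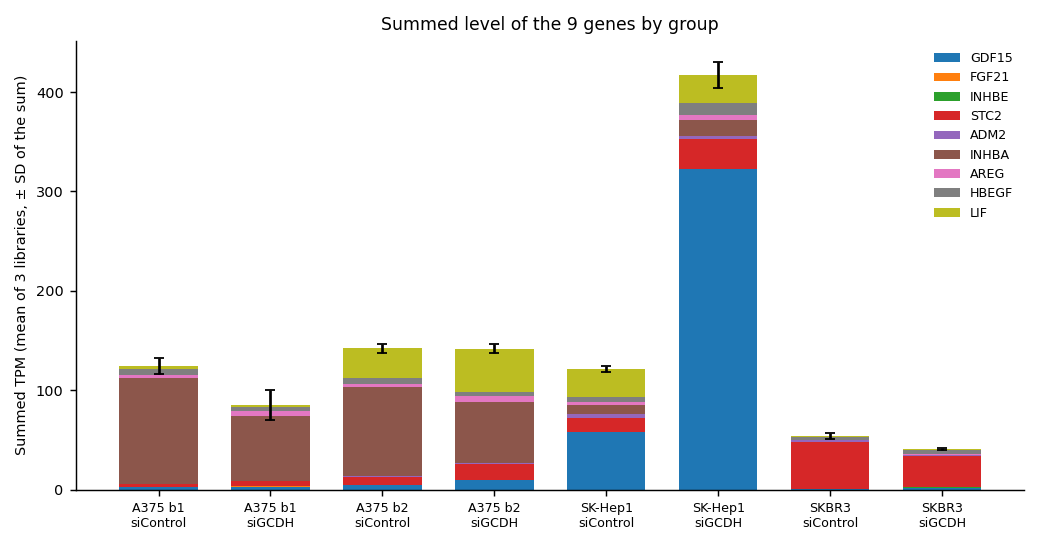
Summed TPM of the 9 genes in each group (vertical axis), stacked by gene, as the mean of 3 libraries with the SD of the sum as the error bar; b1 and b2 stand for batch 1 and batch 2, and tag values (b1) are not comparable between genes. The SK-Hep1 knockdown bar reaches 417 TPM, of which GDF15 (blue) is 77.4%.

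GDF15, at chr19:18374731-18389176 on the plus strand, ranged from 0.26 to 334 TPM over the full-length libraries. Its 6 full-length groups followed the order SK-Hep1 knockdown, SK-Hep1 control, A375 batch 2 knockdown, A375 batch 2 control, knockdown and then control of the libraries labelled SKBR3, and no group overlapped with the next. In SK-Hep1 it stood at 56.9, 59.3 and 57.9 TPM in the control wells and at 334, 328 and 307 TPM after GCDH knockdown. The ratio of means was 5.56, and the gene moved from a median rank of 2709 to 416 among all rows of a library. The 3 knockdown wells all stood above the 3 control wells.

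In A375 batch 2 GDF15 was measured at 5.47, 4.68 and 4.38 TPM in control wells and at 8.20, 10.3 and 10.0 TPM after knockdown. All 3 knockdown libraries were above all 3 controls. GDF15 rose by 0.85 ± 0.13 on the log2(TPM + 1) scale (limma, SE, Benjamini-Hochberg adjusted p = 0.00256), or 1.96-fold in the means. A fit of all 24 libraries, in which the noisier tag libraries enter the estimate of spread, gave the same difference with a limma adjusted p of 0.178.

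Libraries labelled SKBR3 had GDF15 nearly absent from control wells, at 0.29, 0.29 and 0.26 TPM, and held it at 1.55, 2.39 and 1.74 TPM after knockdown. It rose by 1.17 ± 0.22 on the log2(TPM + 1) scale (limma, adjusted p = 0.00257), and the ratio of means was 6.76 between these low levels. The gene passed the filter of 1 TPM only through its knockdown group, with a mean of 1.09 TPM over the 6 libraries, and fell under it when any knockdown replicate was left out. Without the filter the limma adjusted p was 0.00195. With quantile normalization the difference was 0.44 (limma, adjusted p = 0.132), and the call was lost.

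The tag libraries of A375 batch 1 gave no separation for GDF15. Its control values of 0.60, 5.66 and 2.93 TPM spanned a range like that of the knockdown values, 2.56, 0.78 and 6.26 TPM. The difference was 0.05 with a 95% interval from -1.501 to 1.59 (limma, adjusted p = 0.976), which is wide enough to hold the A375 batch 2 value.

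The amount by which GDF15 rose was also compared between A375 batch 2 and the libraries labelled SKBR3. The difference of the knockdown effects was -0.32, with a 95% interval from -0.75 to 0.11 (limma, adjusted p = 0.191). It depended on how low values were treated: with a pseudocount of 0.1 TPM it was -1.41 (limma, adjusted p = 0.00167), and with a pseudocount of 5 TPM it was 0.18. MIR3189, a microRNA gene inside GDF15, was listed at 0 in all 24 libraries.

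STC2 (chr5:173314713-173329503, minus strand), which binds and blocks the protease PAPP-A and is a known target of ATF4, moved in opposite directions between lines. Control wells of A375 batch 2 were at 6.95, 8.15 and 8.89 TPM and knockdown wells at 14.7, 16.9 and 14.3 TPM, without overlap. It rose there by 0.86 ± 0.12 on the log2 scale (limma, adjusted p = 0.00139). Its level in the libraries labelled SKBR3 was 45.5, 44.4 and 50.1 TPM in control wells and 33.6, 28.9 and 31.3 TPM after knockdown, and it fell by 0.56 ± 0.08 (limma, adjusted p = 0.000585). The 2 effects differed by 1.42 ± 0.14 (limma interaction, adjusted p = 9.85e-06).

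STC2 in SK-Hep1 went from 14.4, 15.7 and 13.3 TPM to 29.98, 28.2 and 30.7 TPM, a 2.05-fold ratio of means. The A375 batch 1 control values of 2.37, 3.11 and 3.0 TPM lay below those after knockdown, 4.61, 4.44 and 6.36 TPM, and the difference of 0.67 ± 0.27 did not pass (limma, adjusted p = 0.176), although it did in the fit of all 24 libraries (0.00027). STC2 was higher after knockdown without overlap in 3 of the 4 sets, and lower without overlap in the fourth.

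ADM2 (chr22:50481556-50486440, plus strand), also called intermedin, a vasodilator peptide, fell in the libraries labelled SKBR3 at lower levels than STC2. Its values in the libraries labelled SKBR3 were 2.05, 1.70 and 1.83 TPM in control wells and 0.87, 0.97 and 0.70 TPM after knockdown. ADM2 passed the filter there only through its control group, and it fell by 0.63 ± 0.19 (limma, adjusted p = 0.0198, and 0.0198 without the filter). The limma adjusted p was 0.0721 without control replicate 1 and 0.0543 without control replicate 3. ADM2 of A375 batch 2 was at 0.42, 0.80 and 0.45 TPM in control wells and at 1.73, 1.11 and 1.64 TPM after knockdown. It passed the filter in this set only through its knockdown group, with a mean of 1.025 TPM over the 6 libraries. The difference of 0.68 ± 0.24 did not pass (limma, adjusted p = 0.0641, and 0.0613 without the filter), although it did without the mean-variance trend (0.0190).

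Between A375 batch 2 and the libraries labelled SKBR3 the effects on ADM2 differed by 1.31 ± 0.22 (limma interaction, adjusted p = 0.000487). ADM2 had means under 1 TPM in A375 batch 2 control wells (0.56) and in knockdown wells of the libraries labelled SKBR3 (0.85). It entered that fit only through the groups in which it was high. Without the filter the limma interaction adjusted p was 0.00103. In SK-Hep1 ADM2 ranged from 3.13 to 3.31 TPM in control wells and from 3.16 to 3.55 TPM after knockdown, with overlap. In the tag libraries it was at or under 0.77 TPM and was not tested.

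INHBA (chr7:41667168-41705834, minus strand) encodes the beta A subunit that pairs with itself into activin A. Its values in A375 batch 2 were 87.1, 94.9 and 88.8 TPM in control wells and 60.9, 59.2 and 63.2 TPM after knockdown. The groups did not overlap, and INHBA fell by 0.55 ± 0.05 on the log2 scale (limma, adjusted p = 0.000317). In A375 batch 1 it was at 99.0, 112 and 106 TPM in control wells and at 61.8, 52.6 and 79.6 TPM after knockdown, and it fell by 0.72 ± 0.17 (limma, adjusted p = 0.0434).

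The batch 1 call did not survive most other settings, since the limma adjusted p was 0.110 after median scaling and 0.209 without the 4 long noncoding RNA rows, with differences of -0.52 and -0.42. In SK-Hep1 INHBA was low and stood higher after knockdown, from 8.71, 8.97 and 10.1 TPM to 14.7, 18.1 and 15.9 TPM. The libraries labelled SKBR3 held between 0.09 and 0.38 TPM of INHBA over both groups. INHBA-AS1, an antisense gene that overlaps INHBA, was at or under 0.37 TPM in every library.

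INHBE (chr12:57452323-57459280, plus strand), whose activin E product is made mainly by the liver, was a trace transcript. A375 batch 2 listed it at 0.11, 0.05 and 0.11 TPM in control wells and at 0.54, 0.45 and 0.55 TPM after knockdown, without overlap. It was below the level needed for the test in every set, and in the other sets its groups overlapped. FGF21 (chr19:48755559-48758333, plus strand) was listed at 0 in 18 of 24 libraries and did not exceed 0.32 TPM.

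The ligands of the EGF receptor went opposite ways in A375 batch 2, and both stood higher without overlap in SK-Hep1 and in the libraries labelled SKBR3. AREG (chr4:74445134-74455009, plus strand), which binds the receptor with low affinity, was at 2.43, 2.10 and 2.50 TPM in control wells of A375 batch 2 and at 5.91, 6.59 and 7.49 TPM after knockdown. It rose by 1.19 ± 0.14 (limma, adjusted p = 0.00076), with a 2.84-fold ratio of means. HBEGF (chr5:140332843-140346631, minus strand), which also serves as the diphtheria toxin receptor before it is shed, was at 7.36, 5.14 and 7.39 TPM in the same control wells and at 3.27, 4.53 and 3.89 TPM after knockdown, and it fell by 0.63 ± 0.17 (limma, adjusted p = 0.0263).

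The fall of HBEGF rested on few libraries. Its limma adjusted p ranged from 0.0662 to 0.0879 when control replicate 1, control replicate 3, knockdown replicate 1 or knockdown replicate 3 was left out. It was 0.0767 without the filter on low values and 0.143 in the fit of all 24 libraries. In SK-Hep1 HBEGF went the other way, from 5.53, 6.12 and 5.44 TPM to 12.6, 11.5 and 13.5 TPM, a 2.19-fold ratio of means.

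HBEGF of the libraries labelled SKBR3 was at 2.60, 3.32 and 3.75 TPM in control wells and at 4.05, 4.22 and 4.79 TPM after knockdown, which did not overlap. The difference of 0.35 ± 0.15 did not pass (limma, adjusted p = 0.0779), and was -0.28 with quantile normalization. AREG was higher without overlap in SK-Hep1, from 2.95, 3.03 and 2.98 TPM to 4.01, 4.51 and 4.28 TPM, and in the libraries labelled SKBR3, where it was at most 1.20 TPM and was not tested. In the tag libraries the groups of both genes overlapped.

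LIF (chr22:30240447-30246851, minus strand) signals through LIFR and IL6ST and holds mouse embryonic stem cells in an undifferentiated state. Its A375 batch 2 levels were 31.4, 31.3 and 25.9 TPM in control wells and 42.0, 42.9 and 45.1 TPM after knockdown. It rose by 0.54 ± 0.09 (limma, adjusted p = 0.00288), without overlap between groups, and the limma adjusted p was 0.287 in the fit of all 24 libraries. In SK-Hep1 it stood at 29.9, 27.3 and 25.4 TPM in control wells and at 26.7, 30.1 and 26.9 TPM after knockdown, which overlapped.

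The libraries labelled SKBR3 held at most 0.64 TPM of LIF. LIF of A375 batch 1 was at 1.72, 4.02 and 4.06 TPM and then at 2.02, 0.15 and 3.09 TPM, and the difference of -0.76 ± 0.54 did not pass (limma, adjusted p = 0.439). LIF-AS1 and AC004264.1, which overlap LIF on the other strand, were at or under 3.36 TPM in every library, and the sources do not state whether the authors' counting used strand.

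**Figure D3:**
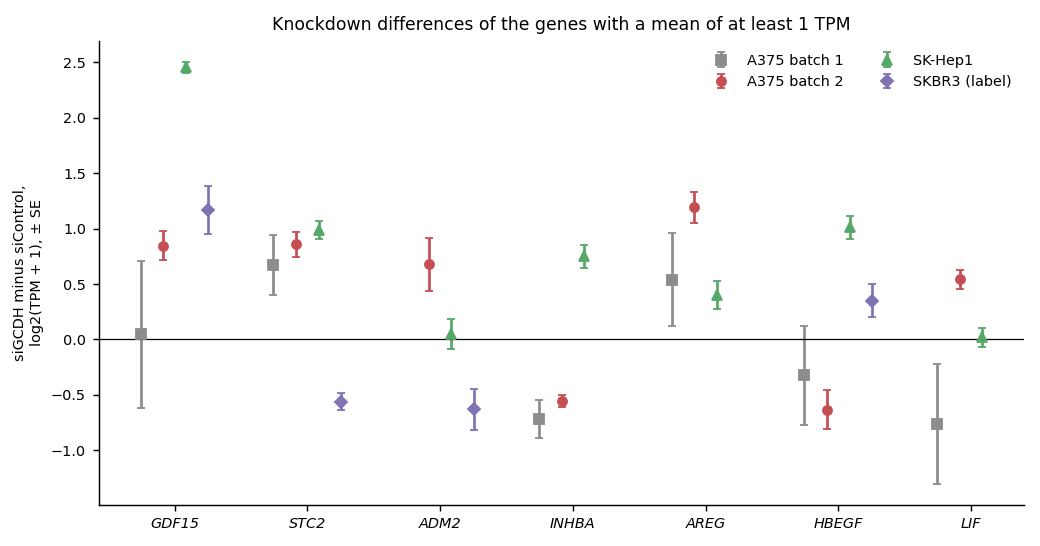
Difference between siGCDH and siControl on the log2(TPM + 1) scale (vertical axis) for the 7 genes that passed the filter of 1 TPM in at least 1 set (horizontal axis), with SE bars from limma; squares are A375 batch 1, circles A375 batch 2, triangles SK-Hep1 and diamonds the libraries labelled SKBR3. STC2 lies at 0.86 in A375 batch 2 and at -0.56 in the libraries labelled SKBR3, and HBEGF at -0.63 in A375 batch 2 and 1.01 in SK-Hep1.

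Counted over the 9 genes, A375 batch 2 had 7 whose mean reached 1 TPM, of which 4 rose (GDF15, STC2, AREG, LIF), 2 fell (INHBA, HBEGF) and 1 (ADM2) did not pass. Among all 15185 genes tested there, 17.9% rose and 15.7% fell. In A375 batch 1, 6 of the 9 were tested, none rose and INHBA fell, beside 1.18% and 6.73% of all genes; at an unadjusted p under 0.05 in limma, STC2 was higher as well. In the libraries labelled SKBR3 4 were tested, GDF15 rose, STC2 and ADM2 fell, and HBEGF did not pass, where 47.3% of all genes rose and 14.7% fell. GDF15 and ADM2 entered that count only through the group in which they were high, so the count supports nothing beyond the values given for each gene.

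In SK-Hep1 5 of the 7 genes tested (GDF15, STC2, INHBA, AREG, HBEGF) were higher without overlap between groups and none was lower without overlap. Among all genes tested there 42.1% were higher and 21.0% lower without overlap, and nothing is read from the count, since GDF15 was picked in this contrast. Of the 7 genes tested in A375 batch 2, 5 were higher and 2 lower without overlap, beside 25.6% and 22.8% of all genes tested. The counts were 1 higher and 1 lower of 6 tested in A375 batch 1 (7.34% and 23.5%). They were 2 higher and 2 lower of 4 tested in the libraries labelled SKBR3 (51.3% and 16.8%). Under the filter, and so outside these counts, INHBE in A375 batch 2, ADM2 in A375 batch 1 and AREG in the libraries labelled SKBR3 were also higher without overlap. With 3 wells a group an exact permutation test of a single gene cannot give a p below 0.1.

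The share of all calls that were higher depended on scaling, because the median of all genes was -0.20 in A375 batch 1, 0.18 in SK-Hep1 and 0.29 in the libraries labelled SKBR3, against 0.02 in A375 batch 2. After scaling to equal medians the share of calls that were higher went from 14.9% to 41.2% in A375 batch 1, from 67.3% to 55% in SK-Hep1 and from 76.3% to 53.4% in the libraries labelled SKBR3. Relative to its set's median, STC2 was 0.83 higher in A375 batch 2 and fell by 0.86 in the libraries labelled SKBR3.

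The knockdown effects of A375 batch 2 and of the libraries labelled SKBR3 differed for 5 of 7 genes tested, where 51.4% of all genes differed. Beside STC2 and ADM2, the effect on AREG was 0.83 ± 0.22 higher in A375 (limma, adjusted p = 0.00747). The effects on INHBA and HBEGF were lower in A375 by 0.57 ± 0.13 (limma, adjusted p = 0.0042) and 0.98 ± 0.22 (limma, adjusted p = 0.00343). GDF15 and LIF did not pass, and LIF differed by 0.47 ± 0.19 (limma, adjusted p = 0.0622). The means of INHBA, AREG and LIF were under 1 TPM in both groups of the libraries labelled SKBR3. These genes therefore entered the fit only through A375, and ADM2 only through A375 knockdown and the control group of the libraries labelled SKBR3. INHBA, with levels near 0 in the libraries labelled SKBR3, lost its call with a pseudocount of 0.1 TPM (limma, adjusted p = 0.271) and after median scaling (0.0512). AREG lost it with the same pseudocount (limma, adjusted p = 0.200), HBEGF with quantile normalization (0.282), and both in the fit of all 24 libraries (0.0846 and 0.0664). Of all genes whose effects differed, 28.3% were higher in A375, and 48.7% after median scaling.

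Between the 2 batches of A375, 0 of 6 genes tested differed in their knockdown effect in limma, where 5.23% of all genes did. At an unadjusted p under 0.05 LIF differed, by 1.305 with a 95% interval from 0.08 to 2.53 (limma, adjusted p = 0.219). The interval for INHBA ran from -0.23 to 0.56 and that for STC2 from -0.36 to 0.73. Of the genes that differed, 91.5% were higher in batch 2, and 50.3% after median scaling.

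Control cells differed in many of these factors, as they did in most genes. All 7 genes tested differed between A375 batch 2 and the libraries labelled SKBR3, where 74.6% of all genes did. The means of INHBA, LIF, GDF15 and AREG were under 1 TPM in the latter, so these genes entered the fit only through the other lines; without the filter their limma adjusted p was 2.5e-05 or less. INHBA was 6.23 higher on the log2 scale in A375 (limma, adjusted p = 3.26e-11), LIF 4.38 higher (limma, adjusted p = 8.32e-09) and GDF15 2.19 higher (limma, adjusted p = 2.82e-08). STC2 was lower in A375 (-2.41, limma, adjusted p = 2.87e-08). ADM2, also counted among the 7, had a mean of 0.56 TPM in A375 batch 2 and entered the fit only through the other lines. Without the filter its limma adjusted p was 0.000642.

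Against SK-Hep1, A375 batch 2 control cells had less STC2 (-0.78, limma adjusted p = 6.57e-05) and ADM2 (-1.45, limma adjusted p = 5.49e-06) and more INHBA (3.16, limma adjusted p = 1.96e-09). That comparison called 73.5% of all genes. AREG, HBEGF and LIF did not pass there, and the 95% interval for LIF ran from -0.24 to 0.43. ADM2 had a mean of 0.56 TPM in A375 batch 2 control cells and entered the fit only through the other lines, where it was high. Without the filter its limma adjusted p against SK-Hep1 was 2.98e-05. SK-Hep1 control cells held more LIF (4.29), INHBA (3.07), AREG (1.52), HBEGF (0.67) and ADM2 (0.57) and less STC2 (-1.62) than the libraries labelled SKBR3, each with a limma adjusted p of 0.00277 or less, where 77.4% of all genes were called. LIF, INHBA and AREG had means under 1 TPM in the libraries labelled SKBR3 and entered this fit only through the other lines. Without the filter their limma adjusted p was 6.6e-06 or less. GDF15 in SK-Hep1 control cells was higher by 3.34 than in A375 batch 2 and by 5.53 than in the libraries labelled SKBR3. Both GDF15 differences are given without a test.

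Of the 24 receptors and coreceptors of these factors, 14 were tested in A375 batch 2, where 3 rose, 3 fell and 8 did not pass. Of all genes tested there, 17.9% rose and 15.7% fell. GFRAL, the receptor of GDF15, was listed at 0 in all 8 groups. RET, its signalling partner, rose in the libraries labelled SKBR3 from 2.86 to 6.20 TPM (0.90 ± 0.12, limma, adjusted p = 0.000498) and had a mean of at most 0.03 TPM in the other groups, and both were named after their values were seen. ACVR2A, a receptor of activins, rose in A375 batch 2 from 4.96 to 8.82 TPM (0.71 ± 0.13, limma, adjusted p = 0.00519), and ACVR1, a type I receptor of the family, rose from 12.8 to 18.6 TPM (0.50 ± 0.09, limma, adjusted p = 0.00475).

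LIFR, the receptor of LIF, fell in A375 batch 2 from 4.13 to 1.84 TPM (-0.85 ± 0.18, limma, adjusted p = 0.00872) and in SK-Hep1 from 8.84 to 5.30 TPM (-0.63 ± 0.13, limma, adjusted p = 0.00473). ERBB2, the shared partner of the EGF receptor family, fell by 0.57 in A375 batch 2 (limma, adjusted p = 0.00348), and rose by 0.46 in SK-Hep1 (limma, adjusted p = 0.00317) and by 0.68 in the libraries labelled SKBR3 (limma, adjusted p = 0.000394). The receptor list as a whole had 6 higher and 3 lower of 12 tested in SK-Hep1, beside 37.3% and 18.2% of all genes. It had 6 higher and 3 lower of 19 in the libraries labelled SKBR3, beside 47.3% and 14.7%. In A375 batch 1 it had 0 of 10, beside 1.18% and 6.73%. There, 1 was higher and 2 lower at an unadjusted p under 0.05 in limma.

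Among 23 family relatives and antagonists, 12 were tested in A375 batch 2, and 6 rose, 1 fell and 5 did not pass. Of all genes tested there, 17.9% rose and 15.7% fell. IL11, a cytokine of the LIF family, rose in A375 batch 2 from 12.6 to 50.6 TPM (1.92 ± 0.08, limma, adjusted p = 6.7e-06). FST, the follistatin that binds and neutralises activins, rose from 235 to 363 TPM while INHBA fell (0.62 ± 0.04, limma, adjusted p = 6.3e-05). Both also rose in A375 batch 1, IL11 by 1.16 and FST by 0.50 (limma, adjusted p = 0.0397 and 0.0201). TGFA, a further ligand of the EGF receptor, rose from 275 to 363 TPM in A375 batch 2 (0.40 ± 0.05, limma, adjusted p = 0.000867).

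STC1, the paralog of STC2, rose in SK-Hep1 from 50.9 to 173 TPM (1.74 ± 0.05, limma, adjusted p = 7.38e-07) and in A375 batch 2 from 4.11 to 8.44 TPM (0.88 ± 0.11, limma, adjusted p = 0.000843). The SK-Hep1 list had 3 higher and 6 lower of 12 tested, beside 37.3% and 18.2% of all genes. IL6 and EREG, named after their values were seen, were among those that fell there, IL6 from 34.8 to 5.32 TPM (-2.50 ± 0.09, limma, adjusted p = 9.45e-07) and EREG, another ligand of the EGF receptor, from 217 to 84.3 TPM (-1.35 ± 0.08, limma, adjusted p = 1.18e-05). The libraries labelled SKBR3 had 7 higher and 1 lower of 8 tested, beside 47.3% and 14.7% of all genes. The control means of INHA, INHBB and FST were under 1 TPM there (0.57, 0.62 and 0.997 TPM). These genes entered that count only through their knockdown group, so nothing is read from the count.

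Calls of shedding and processing enzymes went in both directions, as they did over all genes. In A375 batch 2, 10 of the 12 were tested, 2 rose, 3 fell and 5 did not pass. Of all genes tested there, 17.9% rose and 15.7% fell. TIMP3, an inhibitor of the sheddase ADAM17, fell in all 4 sets, by 1.03 in A375 batch 1, 0.70 in A375 batch 2, 1.82 in SK-Hep1 and 0.87 in the libraries labelled SKBR3, with limma adjusted p-values of 0.0049 or less. In A375 batch 2 its level went from 415 to 256 TPM. ADAM10, a sheddase of EGF receptor ligands, fell in the 3 full-length sets, by 0.47, 0.89 and 0.42 in that order (limma, adjusted p of 0.00301 or less).

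ADAM9, a further sheddase, rose in A375 batch 2 from 60.1 to 81.9 TPM (0.44 ± 0.05, limma, adjusted p = 0.000518) and fell in SK-Hep1 from 171 to 150.4 TPM (-0.19 ± 0.06, limma, adjusted p = 0.0215). MBTPS1, the site-1 protease that activates ATF6, fell in A375 batch 2 from 67.8 to 52.8 TPM (-0.35 ± 0.06, limma, adjusted p = 0.00386) and in the libraries labelled SKBR3 from 63.8 to 56.0 TPM (-0.19 ± 0.05, limma, adjusted p = 0.0197). The whole list had 2 higher and 5 lower of 9 tested in SK-Hep1, beside 37.3% and 18.2% of all genes. It had 3 higher and 4 lower of 11 in the libraries labelled SKBR3, beside 47.3% and 14.7%. In A375 batch 1 it had 0 higher and 1 lower of 9, beside 1.18% and 6.73%. There, 2 were higher at an unadjusted p under 0.05 in limma.

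Most of the 22 listed regulators upstream of these factors rose in A375 batch 2. The list was chosen with earlier results of these data known, so nothing is read from its counts and medians. All 22 were tested in A375 batch 2, and 16 rose, none fell and 6 did not pass, with a median difference of 0.57 beside 0.02 for all genes. Of the 6, 2 were lower at an unadjusted p under 0.05 in limma. Of all genes tested in A375 batch 2, 17.9% rose and 15.7% fell. In SK-Hep1, where 37.3% of all genes rose and 18.2% fell, 7 of 20 rose and 3 fell, and the median was 0.04 beside 0.18 for all genes. In the libraries labelled SKBR3 9 of 21 rose and 4 fell, beside 47.3% and 14.7% of all genes, and in A375 batch 1 5 of 21 rose and none fell, beside 1.18% and 6.73%, with 1 lower at an unadjusted p under 0.05 in limma. Tested as a difference, the effect was higher in A375 batch 2 than in the libraries labelled SKBR3 for 11 of the 22 and lower for 4, where 51.4% of all genes differed.

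ATF4 rose in A375 batch 2 from 315 to 595 TPM (0.92 ± 0.03, limma, adjusted p = 2.35e-06) and in A375 batch 1 by 0.83 ± 0.10 (limma, adjusted p = 0.00479). In SK-Hep1 it was at 372 and 382 TPM (0.04 ± 0.04, limma, adjusted p = 0.398), and in the libraries labelled SKBR3 it fell from 1061 to 922 TPM (-0.20 ± 0.03, limma, adjusted p = 0.000371). ATF3, a stress-induced repressor, had the same order: it rose in A375 batch 2 from 11.6 to 54.8 TPM (2.15 ± 0.07, limma, adjusted p = 2.99e-06), differed by -0.41 ± 0.19 in SK-Hep1 (limma, adjusted p = 0.1002) and fell in the libraries labelled SKBR3 from 72.6 to 33.5 TPM (-1.09 ± 0.05, limma, adjusted p = 6.27e-06).

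PPP1R15A (GADD34), which recruits a phosphatase to eIF2, rose in all 4 sets, by 1.15, 1.01, 1.64 and 0.88 in A375 batch 1, A375 batch 2, SK-Hep1 and the libraries labelled SKBR3 (limma, adjusted p of 0.0281 or less). DDIT3 (CHOP), named after its values were seen, rose in the 3 full-length sets, by 1.35, 0.66 and 0.86 in that order (limma, adjusted p of 0.000366 or less). EGR1, an immediate early factor, rose in A375 batch 2 from 11.0 to 44.7 TPM (1.93 ± 0.07, limma, adjusted p = 4.53e-06) and in batch 1 by 1.26 (limma, adjusted p = 0.0243), and was at 2.69 and 2.61 TPM in SK-Hep1. In the libraries labelled SKBR3, STC2, ADM2, ATF4 and ATF3 fell, and GDF15, PPP1R15A and DDIT3 rose. A link between these genes was not tested.

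Some calls of these listed genes ended under another setting. In A375 batch 1 a limma fit without the mean-variance trend gave adjusted p-values between 0.0575 and 0.146 for ATF4, ATF3, EGR1, PPP1R15A, IL11, FST and TIMP3, and EGR1, FST, IL11 and PPP1R15A also lost their calls when any of several single replicates was left out. The fit of all 24 libraries ended the A375 batch 2 calls of ACVR1, ERBB2, ADAM10, MBTPS1 and TGFA (limma adjusted p from 0.0519 to 0.238), the SK-Hep1 calls of ACVR1, ERBB2 and ADAM9 (0.108 to 0.195), and the ADAM10 and MBTPS1 calls in the libraries labelled SKBR3 (0.190 and 0.242). ATF4 in the libraries labelled SKBR3 had an adjusted p of 0.055 with quantile normalization in limma. ATF3 in SK-Hep1 passed as lower with quantile normalization (-0.58, limma adjusted p = 0.0325) and median scaling (-0.52, 0.0423).

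**Figure D4:**
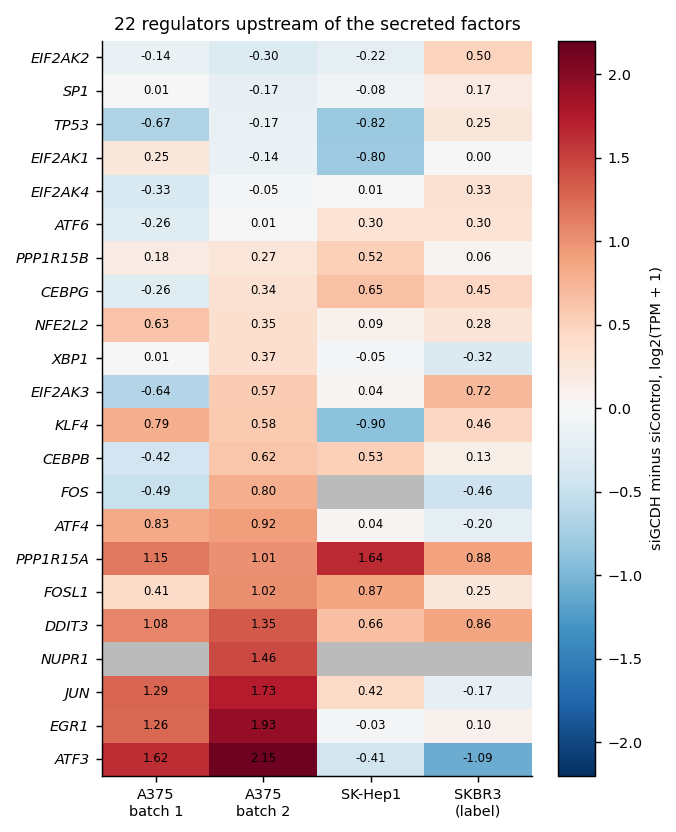
Difference between siGCDH and siControl on the log2(TPM + 1) scale for the 22 upstream regulators (rows) in the 4 sets (columns), printed in each cell and coloured from blue (lower) to red (higher), with genes under the filter in grey. In A375 batch 2 ATF3 is at 2.15 and ATF4 at 0.92, while in the libraries labelled SKBR3 they are at -1.09 and -0.20.

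Marker genes of other tissues moved in both directions in SK-Hep1, where 37.3% of all genes rose and 18.2% fell. The 10 breast luminal markers summed to between 6447 and 6714 TPM in control wells and between 3539 and 3659 TPM after knockdown, and 2 of 9 tested rose, 5 fell and 2 did not pass. KRT8 (2317 to 949 TPM) and KRT18 (2687 to 1109 TPM) carried the lower sum, KRT19 was at 1262 and 1275 TPM, and ERBB2 and EPCAM rose by 0.46 and 0.56 (limma, adjusted p = 0.00317 and 0.0125). The 8 hepatocyte markers summed to between 8.81 and 11.6 TPM and then between 36.1 and 37.6 TPM, nearly all of it SERPINA1 (9.59 to 34.9 TPM), with AFP at 0.69 and 1.99 TPM and the other 6 at 0 in both groups. The part of such changes in the GDF15 level was not tested. In bulk samples fewer cells of a kind and less RNA per cell cannot be told apart.

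Over the 18 full-length libraries, the 6 genes with the level pattern most like GDF15 were AOX1, ADORA2B, CTSB, TVP23B, DNER and ASAP2, among 10648 genes whose mean reached 5 TPM. Their Pearson correlations of log2(TPM + 1) with GDF15 lay between 0.987 and 0.993. AOX1, an aldehyde oxidase, was at 1.84 and 3.97 TPM in control and knockdown cells of A375 batch 2, 19.1 and 61.8 TPM in SK-Hep1, and 0.01 and 0.32 TPM in the libraries labelled SKBR3. DNER, a Notch ligand of neurons, was at 1.22 and 4.91 TPM, 54.9 and 272 TPM, and 0.01 and 0.20 TPM in the same order.

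CTSB, the lysosomal protease cathepsin B, was the most abundant of the 6, at 516 TPM in control and 1003 TPM in knockdown cells of SK-Hep1. These correlations describe 6 group means more than 18 separate points, since wells of a group lie together and the lines differ in many genes. With ranks in place of values, 1 of the 6 genes stayed among the 6 most alike. When each line's control mean was taken off and only the 9 knockdown libraries were used, none of the 6 did. HBEGF had a correlation of 0.83 with GDF15, LIF of 0.68, INHBA of 0.40 and STC2 of -0.17 over the 18 libraries. With each line's control mean taken off, over the 9 knockdown libraries, the values were 0.88, -0.66, 0.95 and 0.38 in that order. Both sets of values hold the SK-Hep1 libraries in which GDF15 was picked, so nothing is read from them.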

How the data were processed

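The deposited table held TPM values made by the authors from single-end reads of 24 libraries. The build hg38 and the tools RSEM 1.3.1, STAR 2.7.0d and cutadapt 2.3 are named, per the submitters' processing notes. Depth cannot be read from TPM, and no counting interval is given. RSEM shares reads among similar transcripts, and neither its annotation nor its strand setting is stated in these sources.

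Values were analysed as log2(TPM + 1), which understates changes of low genes, for genes whose mean over the libraries of a fit reached 1 TPM. The 6 libraries of each line and batch were fitted with limma 3.58.1 (R 4.3.3, eBayes with trend). Differences between knockdown effects and between control cells were fitted on the libraries concerned. P-values were two-sided and adjusted by Benjamini-Hochberg over all genes of a fit, with a threshold of 0.05. The scripts were tested on simulated data. Python 3.11.15 was used for the remaining values.

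Replicates were wells of the same line, so p-values measure the spread between wells. Wells with the same number did not deviate together (correlations from -0.06 to 0.14), so the numbers were not used as pairs. The 9 genes and all gene lists were chosen with earlier results of these data known. The text names the 9 genes, the 6 genes most correlated with GDF15, and from each list the 4 tested genes with the smallest adjusted p in A375 batch 2. GFRAL, RET, IL6, EREG, DDIT3 and the marker genes were named outside this rule, after their values were seen. Alternatives changed the pseudocount (0.1 or 5 TPM), the filter (none or 5 TPM), the normalization, the trend, the replicate block, a joint fit and each replicate. Removing the 4 noncoding RNA rows, and the likeness to GDF15 over deviations from control means, were added after seeing the data.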

Additional observations from a re-analysis of the deposited data

Results flagged for a closer look

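For 5 of the 7 genes tested the knockdown effect differed between A375 batch 2 and the libraries labelled SKBR3 in a test of the difference itself (limma interaction), where 51.4% of all genes differed. The difference was 1.42 for STC2 and 1.31 for ADM2, which were higher after knockdown in A375 batch 2 and fell in the libraries labelled SKBR3. It was 0.83 for AREG, -0.57 for INHBA and -0.98 for HBEGF on the log2(TPM + 1) scale. ADM2 entered the fit only through A375 knockdown and the control group of the libraries labelled SKBR3, the groups in which it was high. INHBA and AREG had means under 1 TPM in the libraries labelled SKBR3 and entered the fit only through A375. Both lost their calls with a pseudocount of 0.1 TPM (limma interaction, adjusted p = 0.271 and 0.200). HBEGF lost its call with quantile normalization (limma interaction, adjusted p = 0.282).

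In 6 further comparisons every knockdown library of one set was above its controls and every knockdown library of the other set was below, and these differences were not tested. For STC2 the effect was 1.24 higher in A375 batch 1 and 1.55 higher in SK-Hep1 than in the libraries labelled SKBR3. For ADM2 it was 1.07 higher in A375 batch 1 than in the libraries labelled SKBR3. In A375 batch 1 ADM2 was at 0.21, 0 and 0.24 TPM in control wells and at 0.25, 0.70 and 0.77 TPM after knockdown. Those levels were under the filter, so a change of ADM2 in that set was not resolved. For INHBA, compared with SK-Hep1, the effect differed by -1.47 in A375 batch 1 and by -1.30 in A375 batch 2. For HBEGF it differed by -1.64 between A375 batch 2 and SK-Hep1. Batch 1 was made with another kit than the other sets.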

How the results depend on the processing

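The rises of GDF15, STC2, AREG and LIF and the fall of INHBA in A375 batch 2 kept their direction in every alternative that tested them. AREG was not tested with the filter of 5 TPM. The joint fit ended the calls of GDF15 and LIF (limma adjusted p = 0.178 and 0.287). In A375 batch 1, 1 of the 9 genes and 1018 of all genes were called. Without a filter, with quantile normalization, median scaling, no trend, the replicate block or no long noncoding RNA rows, 0 of the 9 were called, and 590, 516, 498, 85, 357 and 488 of all genes; the joint fit gave 3 and 5573. The joint fit called 2646 of all genes in A375 batch 2 (5099 otherwise), 6593 in the libraries labelled SKBR3 (10236), and 5090 (8643) and 3 of the 9 (5) for the difference between these sets. With a filter of 5 TPM fewer genes were tested: 1 of 1 tested was called in the libraries labelled SKBR3 (3 of 4 otherwise) and 2 of 3 (5 of 7) for that difference. For the difference between the A375 batches, 772 genes were called, and 222 with quantile normalization, 173 with median scaling, 225 without trend, 243 with the replicate block, 2377 in the joint fit and 186 without the noncoding rows. Leaving out 1 replicate gave 261 to 1190 there and, in A375 batch 1, 311 to 592 of all genes and 0 to 1 of the 9. With the replicate block HBEGF lost its call in A375 batch 2 (limma adjusted p = 0.0593).

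Some small differences changed sign, and the cause was not tested. ADAM10 in A375 batch 1 was at 0.10, 0.088 and 0.19 with quantile normalization, median scaling and no noncoding rows. In SK-Hep1, quantile normalization and median scaling gave ADM2 -0.18 and -0.065, LIF -0.094 and -0.10, MBTPS1 -0.0094 and -0.012, and ATF4 -0.013 and -0.076. In the libraries labelled SKBR3, quantile normalization gave HBEGF -0.28, ACVR1 -0.20, ACVR2A -0.12 and EGR1 -0.59, and median scaling gave ADAM9 -0.11 and EGR1 -0.13. The GDF15 difference between A375 batch 2 and the libraries labelled SKBR3 was 0.18 with a pseudocount of 5 TPM and 0.26 with quantile normalization. Between the A375 batches, quantile normalization, median scaling and no noncoding rows gave STC2 -0.070, -0.035 and -0.11, and INHBA -0.23, -0.052 and -0.14. Between control cells of A375 batch 2 and SK-Hep1, LIF was at -0.085 and -0.087 with quantile normalization and median scaling, and HBEGF at -0.0062 with median scaling. Leaving out 1 replicate gave, in A375 batch 1, GDF15 -0.51 to 0.55, TGFA -0.024 to 0.13, ADAM10 -0.37 to 0.26 and HBEGF -0.70 to 0.011, in SK-Hep1, EGR1 -0.11 to 0.062 and LIF -0.036 to 0.078, and between the A375 batches, HBEGF -0.64 to 0.064. Without the filter INHBE was called in A375 batch 2. Depth is unknown, so changes of genes under 1 TPM were not resolved.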
